A study of Mus musculus with 16 samples.

Results

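10 inflammatory genes controlled by the transcription factor NF-kB were followed in mouse hepatocytes given SQ1 or pravastatin: the chemokines Cxcl1, Cxcl2, Cxcl5, Ccl2, Ccl4, Ccl5, Ccl7 and Ccl20, the cytokine Il6, and Nfkbia, which encodes the NF-kB inhibitor IkB-alpha. They were taken by name, with earlier results of these data known, and found on the array through the RefSeq transcript accession of their probes. All 10 members were on the array, among 20659 named genes. Of these, 9 members and 15053 genes passed the filter on dim probes, and Ccl20 did not.

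The cells were primary cultured hepatocytes of male C57Bl/J mice in Williams Medium E. The groups were cells treated with SQ1 (squalestatin 1, an inhibitor of squalene synthase), labelled 100 µM, cells treated with pravastatin (an inhibitor of HMG-CoA reductase, which acts at the start of the mevalonate pathway), 30 µM, and untreated control cells. Drug was added 48 h after plating and RNA was taken 48 h later. Whether micromolar is the true unit for SQ1 is uncertain, because squalestatins act far below micromolar concentrations, and the drugs were thus not compared at a matched dose. Each of 16 Agilent 2-colour arrays carried treated RNA in 1 dye and control RNA in the other, 8 arrays per drug, with the dyes exchanged on 4 of each 8. The age of the mice and the number of animals behind each culture are not given in the sources used here.

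NF-kB is held in the cytoplasm by inhibitors of the IkB family until signals such as TNF, IL-1 or bacterial products activate the IkB kinases, which mark the inhibitors for destruction. NF-kB then enters the nucleus and switches on chemokines, Il6 and, as a feedback, its own inhibitor Nfkbia. In the liver these chemokines draw neutrophils and monocytes into the tissue, and Il6 drives hepatocytes to make acute phase proteins. Hepatocytes, Kupffer cells, endothelium and stellate cells can each produce them.

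The promoters of 5 members are held in the RefSeq promoter table (build GRCm38.p6) and are shown because the members share in them the letters that NF-kB is known to bind. Each line gives the 250 bases before the transcription start, 5′ to 3′ on the strand of the gene. Capitals mark matches to GGGNNTTTCC, a form of the kappaB motif, searched on both strands.
Cxcl1, chr5:90890995-90891244, plus strand: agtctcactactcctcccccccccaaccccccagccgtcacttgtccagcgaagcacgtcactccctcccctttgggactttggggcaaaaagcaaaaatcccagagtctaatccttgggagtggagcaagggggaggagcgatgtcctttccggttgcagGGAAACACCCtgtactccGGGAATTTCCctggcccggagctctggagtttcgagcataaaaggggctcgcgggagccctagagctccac
Cxcl2, chr5:90903649-90903898, plus strand: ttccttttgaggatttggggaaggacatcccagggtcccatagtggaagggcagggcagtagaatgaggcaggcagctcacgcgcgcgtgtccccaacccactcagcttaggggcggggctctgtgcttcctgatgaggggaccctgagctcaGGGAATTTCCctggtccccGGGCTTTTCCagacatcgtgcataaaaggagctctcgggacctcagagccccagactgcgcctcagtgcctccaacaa
Ccl20, chr1:83116516-83116765, plus strand: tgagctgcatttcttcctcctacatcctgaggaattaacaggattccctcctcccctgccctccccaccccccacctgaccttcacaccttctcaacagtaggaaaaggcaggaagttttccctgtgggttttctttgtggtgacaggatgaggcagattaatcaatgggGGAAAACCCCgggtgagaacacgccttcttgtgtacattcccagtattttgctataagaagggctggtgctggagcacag
Il6, chr5:30012864-30013113, plus strand: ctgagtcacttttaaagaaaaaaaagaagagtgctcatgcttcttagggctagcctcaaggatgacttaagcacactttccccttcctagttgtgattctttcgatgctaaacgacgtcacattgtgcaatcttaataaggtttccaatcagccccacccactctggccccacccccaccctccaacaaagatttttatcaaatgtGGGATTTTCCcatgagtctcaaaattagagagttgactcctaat
Nfkbia, chr12:55492648-55492897, minus strand: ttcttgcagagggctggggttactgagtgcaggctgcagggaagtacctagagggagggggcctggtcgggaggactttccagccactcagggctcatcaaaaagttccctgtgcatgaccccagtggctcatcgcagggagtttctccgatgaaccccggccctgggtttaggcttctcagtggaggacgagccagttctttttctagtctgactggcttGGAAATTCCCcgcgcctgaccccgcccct

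At least 1 match stood in each of these 5 windows, while 1.41% of the 32851 windows of that length in the table held one. Cxcl1 and Cxcl2 each had a pair of matches, and the other windows had 1 each. In Cxcl1 the matches began 89 and 71 bases before the start, in Cxcl2 97 and 78, in Ccl20 80, in Il6 44 and in Nfkbia 29. The match GGGAATTTCC occurred in both Cxcl1 and Cxcl2, and on the other strand in Nfkbia. Il6 also held TTNNGCAAT, a form of the C/EBP motif found in 1.93% of windows on either strand, 128 bases before its start, and TGANTCA, a form of the AP-1 motif found in 6.75% of windows, 249 bases before it. A match is a stretch of letters, and no binding was measured here.

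Arrays and cells were checked first. Between 59.7% and 70.1% of probes per array were well above background (Agilent's own mark), and the median spot intensity ranged from 86 to 145.5. The arrays lay on 4 slides of 4 arrays each, slides 1 and 2 for SQ1 and slides 3 and 4 for pravastatin, so that slide and drug cannot be told apart between drugs. Slide 3 was scanned on another day than the rest. Within a drug each slide held both dye orientations, and its own replicates. All 13 hepatocyte markers measured, Alb among them, were well above background in the 16 control channels, and so were 12 of 13 Kupffer cell and macrophage markers, 11 of 12 of stellate cells and fibroblasts, and 9 of 10 of endothelium. Markers of other liver cell types were thus detected beside those of hepatocytes, and in bulk RNA fewer cells of a type and less RNA per cell cannot be told apart. Log2 ratios are treated over control with the dye effect removed, ± gives the standard error from limma (n = 8 arrays per drug), and adjusted p-values are Benjamini-Hochberg over the 15053 genes. Levels are log2 normalized intensities of 1 channel and still carry a dye effect. Summed levels of markers are instead sums of linear intensities, in which the brightest markers weigh most.

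SQ1 lowered most of the chemokines and Il6. Of the 9 members tested, 7 fell (Cxcl1, Cxcl2, Cxcl5, Ccl2, Ccl4, Ccl7 and Il6), Ccl5 rose, and Nfkbia did not pass the threshold of adjusted p = 0.05. Over all genes tested, 16.5% were called lower and 15.7% higher with SQ1. The members had a median log2 ratio of -0.76, against -0.0023 for all genes. As the members were chosen with earlier results of these data known, such contrasts with all genes are descriptions. With pravastatin the members moved in both directions: 3 fell (Cxcl1, Ccl7 and Nfkbia), 4 rose (Cxcl2, Ccl2, Ccl5 and Il6), and Cxcl5 and Ccl4 did not pass. Pravastatin changed far more of the array, with 35.8% of genes called lower and 30.9% higher, so that 7 of 9 members called is near the share of all genes. The members' median was 0.18, against -0.0116 for all genes.

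**Figure D1:**
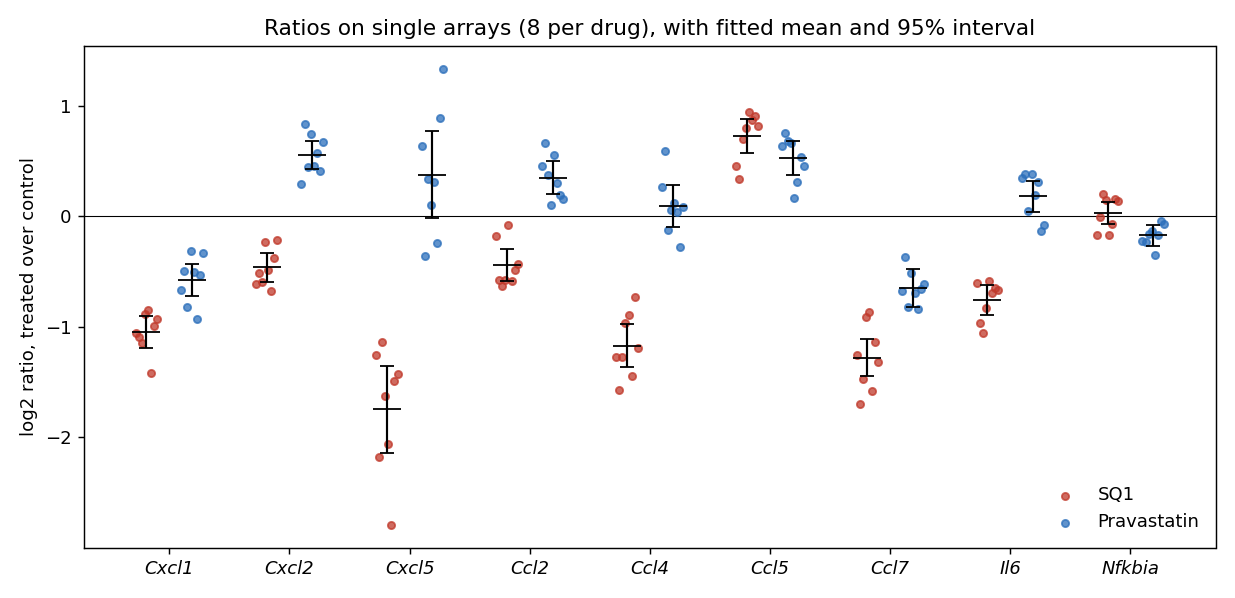
Log2 ratio of treated over control RNA on each array (points, 8 per drug, dye effect removed) for the 9 members tested, SQ1 left of pravastatin, with the fitted mean and its 95% interval in black. All 8 SQ1 arrays lie below 0 for Cxcl1, Cxcl2, Cxcl5, Ccl2, Ccl4, Ccl7 and Il6 and above 0 for Ccl5.

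Cxcl1, Cxcl2 and Cxcl5 encode chemokines that attract neutrophils through the receptor Cxcr2. Cxcl1 had levels of 13.56 to 13.82 in SQ1-treated cells (median 13.72), against 14.40 to 15.05 in their controls (median 14.80). In pravastatin-treated cells it had 13.94 to 14.29 (median 14.17), against 14.31 to 15.02 in controls (median 14.73). Treated and control levels did not overlap with either drug, and every treated channel was the lower. The fall was 2.07-fold with SQ1 (log2 ratio -1.05 ± 0.07, limma adjusted p = 1.66e-08) and 1.49-fold with pravastatin (-0.58 ± 0.07, adjusted p = 1.27e-06).

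Cxcl2 went in opposite directions with the drugs. Its level was 6.72 to 7.05 with SQ1 (median 6.85) and 7.17 to 7.51 in the controls (median 7.36). With pravastatin it was 7.72 to 8.32 (median 8.04), against 7.31 to 7.62 in controls (median 7.49). There was no overlap with either drug: SQ1 channels were all below and pravastatin channels all above their controls. The log2 ratio was -0.46 ± 0.06 with SQ1 (adjusted p = 3.06e-05) and 0.55 ± 0.06 with pravastatin (adjusted p = 6.33e-07). Computed from Agilent's own ratios in place of the corrected intensities, these sizes were -1.05 and 0.86, so that the direction held and the size did not.

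Cxcl5 was the member that fell most with SQ1 and stood 6th from the lowest among the 15053 log2 ratios. It had levels of 8.98 to 9.73 with SQ1 (median 9.54) and 10.81 to 11.77 in controls (median 11.17). The lowest control thus lay above the highest SQ1 channel, and the fall was 3.35-fold (-1.75 ± 0.19, adjusted p = 3.57e-06). With pravastatin the level was 11.09 to 12.33 (median 11.43), against 10.64 to 11.74 in controls (median 11.18), and the ranges overlapped. Array ratios spread from -0.36 to 1.33 with pravastatin, and the log2 ratio of 0.37 ± 0.19 (95% interval -0.02 to 0.77) did not pass (adjusted p = 0.0855). It passed at 0.0348 without pravastatin replicate 2 and at 0.0451 without pravastatin replicate 6, so that single arrays decide that call. It also passed with median centring (0.49, adjusted p = 0.0394) and from Agilent's own ratios (0.47, adjusted p = 0.043).

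Ccl2 and Ccl7 encode monocyte attractants that act through Ccr2. Ccl2 had levels of 15.76 to 16.07 with SQ1 (median 15.85), against 15.98 to 16.58 in controls (median 16.39). With pravastatin it had 16.63 to 16.96 (median 16.74), against 16.11 to 16.73 in controls (median 16.47). Both pairs of ranges overlapped in part, yet all 8 SQ1 arrays had a ratio below 0 and all 8 pravastatin arrays one above 0. The log2 ratios were -0.44 ± 0.07 with SQ1 (adjusted p = 0.000127) and 0.35 ± 0.07 with pravastatin (adjusted p = 0.000268). With each array centred on its median in place of loess, the SQ1 value was -0.31 and did not pass (adjusted p = 0.1), and the pravastatin value was 0.56.

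Ccl7 fell with both drugs. Its levels were 9.40 to 10.27 with SQ1 (median 9.57) and 10.49 to 11.24 in controls (median 11.01). With pravastatin they were 10.30 to 10.70 (median 10.49), against 10.90 to 11.50 in controls (median 11.13). No treated channel reached the lowest control of either set. The fall was 2.43-fold with SQ1 (-1.28 ± 0.08, adjusted p = 1.05e-08) and 1.57-fold with pravastatin (-0.65 ± 0.08, adjusted p = 2.15e-06).

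Ccl4 and Ccl5 encode chemokines that attract T cells and macrophages. Ccl4 had levels of 7.26 to 8.28 with SQ1 (median 7.56), against 8.23 to 9.24 in controls (median 8.86). Only the highest SQ1 channel reached into the control range. The fall was 2.25-fold (-1.17 ± 0.09, adjusted p = 1.08e-07), and from Agilent's own ratios the log2 ratio was -1.54. With pravastatin the level was 8.21 to 9.72 (median 9.02) and in controls 8.40 to 9.23 (median 8.84), which overlapped widely, and the log2 ratio of 0.09 ± 0.09 (95% interval -0.10 to 0.29) did not pass (adjusted p = 0.376).

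Ccl4 levels in the controls also differed between slides. Its controls lay at 9.09 to 9.24 on slide 1 and 9.08 to 9.23 on slide 3, against 8.23 to 8.63 on slide 2 and 8.40 to 8.61 on slide 4. Slides 1 and 3 carried replicates 1, 2, 5 and 6 of each drug, and slides 2 and 4 the other replicates. Both drug sets appear to share their control cultures, so that slides 3 and 4 may repeat the split of slides 1 and 2. Slide and set of replicates cannot be told apart in it. The SQ1 channels of Ccl4 were below their controls on both slides, at 7.53 to 8.28 on slide 1 and 7.26 to 7.59 on slide 2.

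Ccl5 was the member that rose with SQ1. It had levels of 7.87 to 8.97 with SQ1 (median 8.35), against 7.50 to 7.96 in controls (median 7.59). With pravastatin it had 7.81 to 8.46 (median 8.12), against 7.30 to 7.93 in controls (median 7.57). The ranges overlapped at their ends with both drugs, and the ratio was above 0 on 8 of 8 arrays of each. Ccl5 rose 1.65-fold with SQ1 (0.73 ± 0.07, adjusted p = 1.66e-06) and 1.44-fold with pravastatin (0.52 ± 0.07, adjusted p = 6.75e-06). From Agilent's own ratios the log2 values were larger, at 1.05 with SQ1 and 0.83 with pravastatin. As for Ccl4, the controls of Ccl5 did not overlap between the slides of a drug, though their ranges nearly met. They lay at 7.60 to 7.96 on slide 1 and 7.59 to 7.93 on slide 3. On slides 2 and 4 they lay at 7.50 to 7.57 and 7.30 to 7.55. Such a gap was seen for 2 of 9 members in each drug set. The share of all genes was not computed, so that it is not read as a trait of these members.

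Ccl20, the ligand of Ccr6, was not measurable. Its probe was well above background on 0 of 8 SQ1 channels and 0 of their 8 controls, and on 1 of 8 pravastatin channels and 1 of their controls. No ratio is given, and a transcript below background cannot be told from none.

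Il6 encodes the cytokine that signals through Il6ra and Il6st to Stat3. It had levels of 7.42 to 8.14 with SQ1 (median 7.78), against 8.05 to 8.84 in controls (median 8.63). With pravastatin it had 8.07 to 8.99 (median 8.76), against 8.19 to 8.82 in controls (median 8.47). The SQ1 range met the control range at its upper end, while the pravastatin and control ranges lay over each other. Il6 fell 1.69-fold with SQ1 (-0.76 ± 0.07, adjusted p = 3.59e-07), on 8 of 8 arrays. With pravastatin it rose by 0.18 ± 0.07 on the log2 scale (adjusted p = 0.0237), on 6 of 8 arrays. That small rise was not past the threshold with slide (adjusted p = 0.117) or scan day (adjusted p = 0.103) as a random block, nor without pravastatin replicate 1, 2, 4 or 6 (adjusted p of 0.0624 to 0.0744).

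Nfkbia, the inhibitor that NF-kB itself induces, moved little with either drug. Its levels were 13.87 to 14.15 with SQ1 (median 14.05), against 13.89 to 14.15 in controls (median 14.04). With pravastatin they were 13.70 to 13.90 (median 13.81), against 13.67 to 14.24 in controls (median 13.98). SQ1 channels covered the same range as their controls, with a log2 ratio of 0.03 ± 0.05 (95% interval -0.07 to 0.12, adjusted p = 0.677). With pravastatin the log2 ratio was -0.17 ± 0.05 (adjusted p = 0.00285), and it did not pass from Agilent's own ratios (-0.09, adjusted p = 0.0807) or with median centring (-0.01, adjusted p = 0.924).

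**Figure D2:**
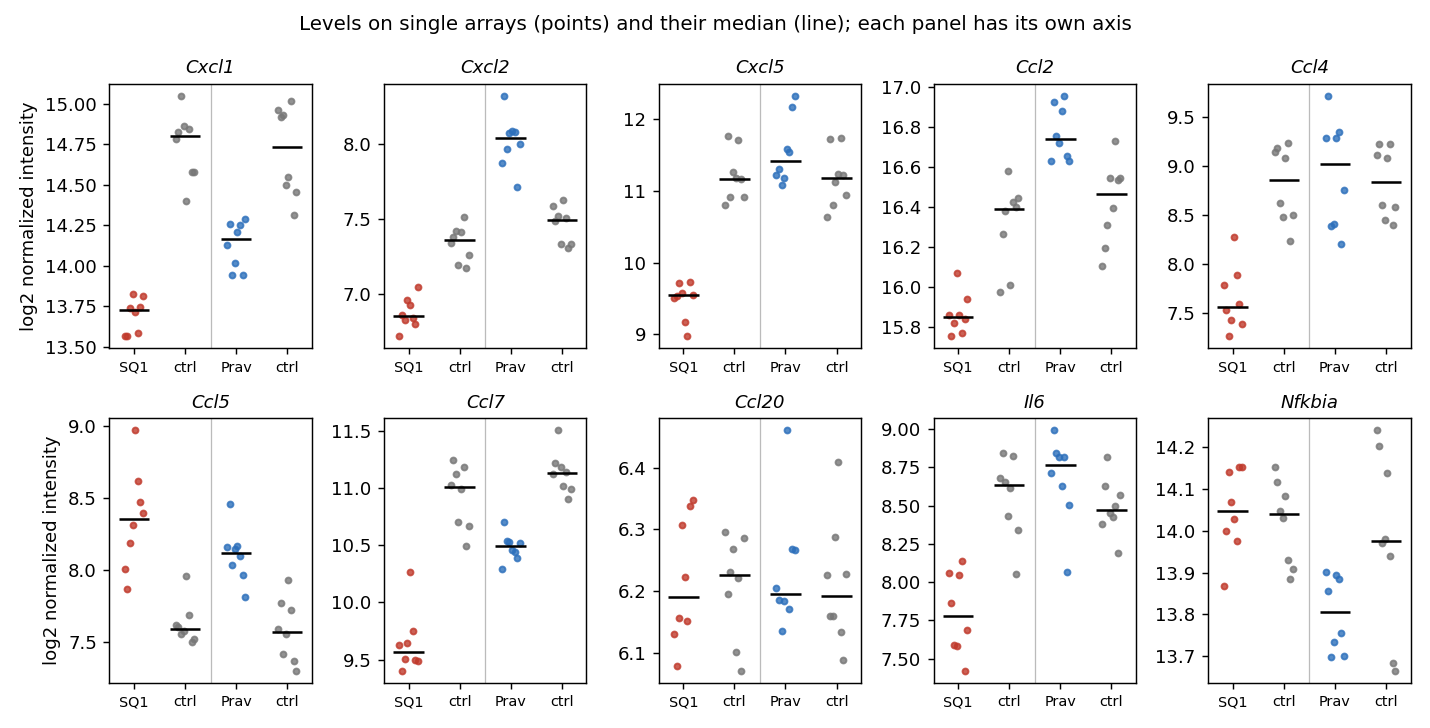
Log2 normalized intensity of treated (colour) and control (grey) channels on single arrays for each of the 10 members, with the median as a line, SQ1 and its controls left of pravastatin and its controls, and an own axis in each panel. SQ1 and control points are apart for Cxcl1, Cxcl2, Cxcl5 and Ccl7, and pravastatin and control points for Cxcl1, Cxcl2 and Ccl7, while Ccl20 lies at the floor in every group.

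Counted over the members, SQ1 and control levels did not overlap for 4 of 9, against 3% of all genes tested. Pravastatin and control levels did not overlap for 3 of 9, against 20.3% of all genes.

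The drugs were then set against each other within the same fit. The difference, the log2 ratio with SQ1 minus that with pravastatin, was negative and called for 7 of 9 members and positive and called for Nfkbia, while 23.8% of all genes were called lower and 29.3% higher. Deposited array names carry the control numbers 1 to 8 in both drug sets, and the design lists 8 controls, so that both comparisons appear to share their control cultures. The fit did not pair the arrays of the drugs. Cxcl5 differed most, at -2.12 ± 0.26 (limma adjusted p = 4.99e-06). It was followed by Ccl4 (-1.26 ± 0.13, adjusted p = 5.78e-07), Cxcl2 (-1.02 ± 0.09, adjusted p = 9.86e-08), Il6 (-0.94 ± 0.09, adjusted p = 4.46e-07) and Ccl2 (-0.79 ± 0.10, adjusted p = 4.46e-06). From Agilent's own ratios Cxcl2 was at -1.91 and Ccl4 at -1.70, so that Cxcl2 and Ccl4 changed places. Ccl7 and Cxcl1, which fell with both drugs, fell further with SQ1, by -0.63 ± 0.11 (adjusted p = 0.000209) and -0.47 ± 0.10 (adjusted p = 0.00063). For Ccl5 the difference of 0.20 ± 0.10 (95% interval -0.01 to 0.42) did not pass (adjusted p = 0.105), although it did without SQ1 replicate 2 (0.26, adjusted p = 0.0255). Nfkbia was 0.20 ± 0.06 higher with SQ1 (adjusted p = 0.014), which did not pass with scan day as a random block (adjusted p = 0.0597), from Agilent's own ratios (adjusted p = 0.0933) or with median centring (adjusted p = 0.442). The ratios of SQ1 and pravastatin arrays did not overlap for 6 of 9 members (Cxcl2, Cxcl5, Ccl2, Ccl4, Ccl7 and Il6), against 20.7% of all genes.

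**Figure D3:**
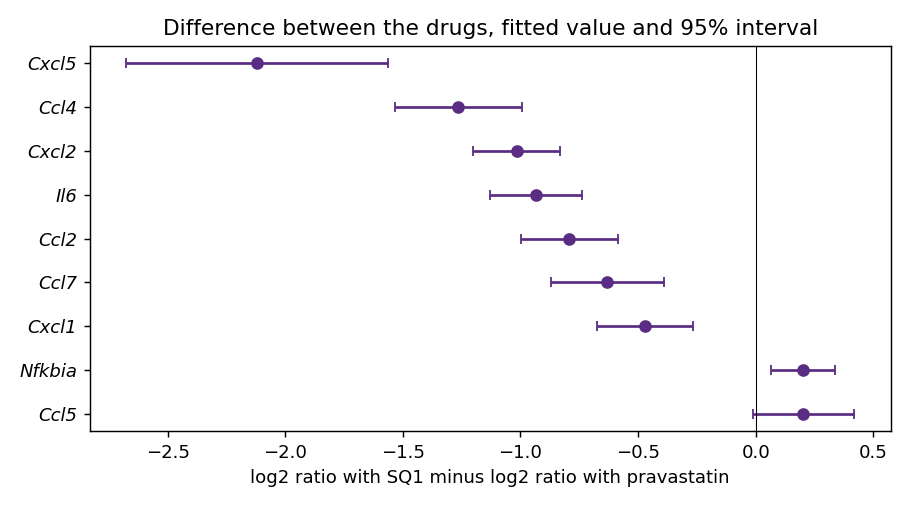
Difference between the drugs for the 9 members tested, as the log2 ratio with SQ1 minus that with pravastatin (points) and its 95% interval (bars), ordered by size. The interval lies below 0 for 7 members, above 0 for Nfkbia, and crosses 0 for Ccl5.

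Members that are neighbours in the genome did not move alike with pravastatin. Cxcl1 and Cxcl2 lie on chromosome 5 with 0 other protein-coding genes between them in the RefSeq annotation of GRCm38.p6, and so do Ccl2 and Ccl7 on chromosome 11. With pravastatin the ratios of Cxcl1 were -0.93 to -0.32 and those of Cxcl2 0.29 to 0.84, with no overlap. Those of Ccl7 were -0.84 to -0.37 and those of Ccl2 0.10 to 0.66, again apart. With SQ1 both genes of each pair fell. Ccl5 and Ccl4, with 3 protein-coding genes between them on chromosome 11, moved in opposite directions with SQ1.

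Each effect was also estimated on each slide. Between the slides of a drug, 8 of 9 members kept their sign with SQ1 and 8 of 9 with pravastatin. The exception with SQ1 was Nfkbia, at -0.10 ± 0.04 on slide 1 and 0.16 ± 0.04 on slide 2, and the slides differed (adjusted p = 0.00707). It was the 1 member of 9 whose SQ1 effect differed between slides, against 12.3% of all genes. The exception with pravastatin was Ccl4, at 0.25 ± 0.11 on slide 3 and -0.07 ± 0.11 on slide 4. With pravastatin 0 of 9 members differed between slides by the limma test (3 at an unadjusted p of 0.05), against 21.8% of all genes. Il6 was 0.30 ± 0.08 on slide 3 (adjusted p = 0.00417) and 0.05 ± 0.08 on slide 4 (adjusted p = 0.608), and Cxcl5 was 0.08 ± 0.22 on slide 3 (adjusted p = 0.754) and 0.66 ± 0.22 on slide 4 (adjusted p = 0.0166). The falls with SQ1 held on both slides, as for Cxcl5 (-2.07 ± 0.22 on slide 1 and -1.42 ± 0.22 on slide 2) and Cxcl1 (-1.10 ± 0.09 and -0.99 ± 0.09).

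**Figure D4:**
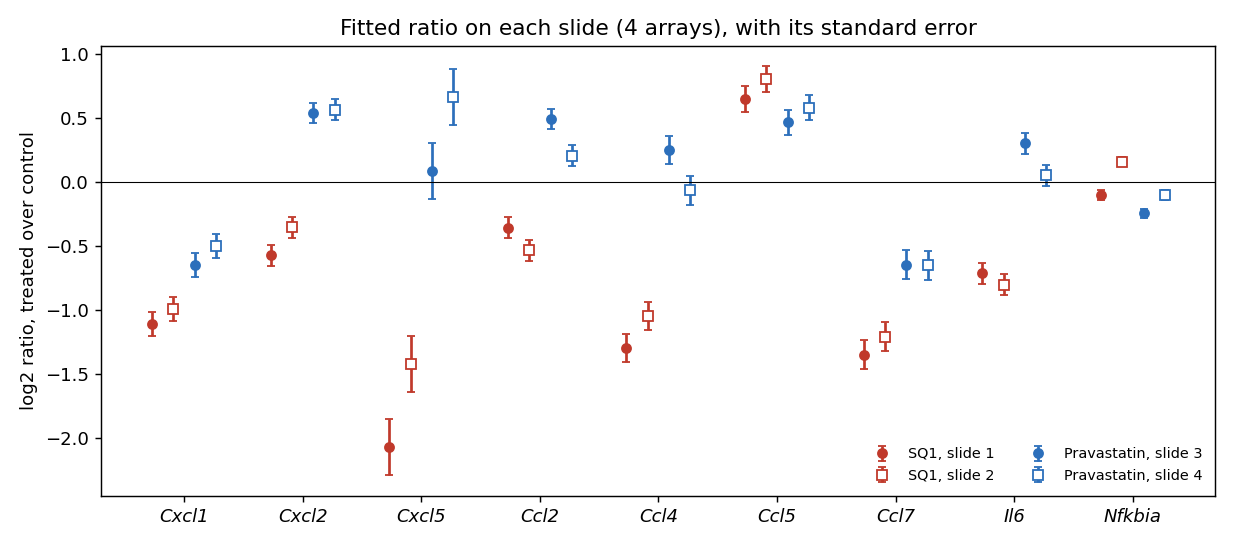
Fitted log2 ratio of treated over control on each slide (4 arrays each) with its standard error, SQ1 on slides 1 and 2 and pravastatin on slides 3 and 4. Both SQ1 slides lie below 0 for the 7 members that fell and above 0 for Ccl5, and they lie on opposite sides of 0 for Nfkbia.

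Within each drug the members' ratios went up and down together only in part. Over the 16 arrays, each drug centred on its own mean, 26 of the 36 pairs of members had a positive correlation, with a median r of 0.26. The highest was Ccl7 with Ccl4 (r = 0.77) and the lowest Nfkbia with Ccl2 (r = -0.75). Points share slides and dyes and appear to share control cultures, so that they are not independent, and r is given as a description. Outside the members, the 5 genes whose ratios were most like the members' mean over the 16 arrays, of 14958 compared, were Cd72, a B cell surface protein (r = 0.93), Mmp13, a collagenase (r = 0.91), Arpin, an inhibitor of the Arp2/3 complex (r = 0.88), Insc, an adaptor of spindle orientation (r = 0.88), and Tas2r118, a bitter taste receptor (r = 0.84). The members' mean was taken without scaling. Cxcl5, with the widest spread of ratios (SD 0.56 with SQ1 and 0.57 with pravastatin), thus weighs most in it. Whether these genes follow Cxcl5 more than the other members was not tested. Cd72 fell with SQ1 (-0.60, adjusted p = 1.32e-05) and pravastatin (-0.30, adjusted p = 0.00163), and Mmp13 fell with SQ1 (-0.71, adjusted p = 3.53e-05) and was at -0.02 with pravastatin (adjusted p = 0.88). Insc fell with SQ1 (-0.79, adjusted p = 2.19e-05) and pravastatin (-1.53, adjusted p = 1.25e-09). Arpin was at -0.07 with SQ1 (adjusted p = 0.207) and 0.03 with pravastatin (adjusted p = 0.614), and Tas2r118 at -0.02 (adjusted p = 0.638) and -0.04 (adjusted p = 0.273), so that neither passed the threshold with either drug.

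Related genes were taken from lists, and their counts are to be read against the shares of all genes called. Over all genes tested, 15.7% were called higher and 16.5% lower with SQ1, and 30.9% higher and 35.8% lower with pravastatin. Of 14 NF-kB subunits and inhibitors, 2 rose and 5 fell with SQ1, and 7 rose and 2 fell with pravastatin. Nfkb1, the precursor of the p50 subunit, had a log2 ratio of -0.32 ± 0.05 with SQ1 (adjusted p = 0.000302) and 0.43 ± 0.05 with pravastatin (adjusted p = 2.46e-06). Tnfaip3 (A20), a ubiquitin-editing enzyme that restrains the pathway, fell by 0.26 on the log2 scale with SQ1, and Nfkbiz, a nuclear IkB protein, by 0.25. With each array centred on its median in place of loess, 0 of the 14 genes were called lower with SQ1, so that the calls of Nfkb1, Tnfaip3 and Nfkbiz were lost. The members that rose with SQ1 were Tnip1 (0.16) and Nfkbie (0.14). With pravastatin, Nfkb2 (0.44) and Relb (0.25), which form the dimer of the alternative pathway, rose, and the IkB-like proteins Bcl3 (-0.44) and Nfkbid (-0.13) fell.

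Of 22 kinases and adaptors upstream of NF-kB, 4 rose and 2 fell with SQ1, and 7 rose and 8 fell with pravastatin. With both drugs these counts were near the shares of all genes. With SQ1 Ikbkg, the regulatory subunit of the IkB kinase, rose by 0.27 ± 0.03, Tbk1 by 0.16 and the catalytic subunit Ikbkb by 0.14. Traf3 (-0.12) and Traf2 (-0.11) fell, and with median centring 0 of the 22 genes were called lower with SQ1. Irak3, an inhibitor of Toll-like receptor signalling, rose by 1.48 ± 0.07 with pravastatin (adjusted p = 3.15e-11) and was at 0.12 ± 0.07 with SQ1 (adjusted p = 0.214). Ticam1 (-0.57), an adaptor of Tlr3 and Tlr4, Chuk (-0.44) and Traf5 (-0.38) fell most with pravastatin, and Traf6 (0.31) and Map3k7 (0.31) rose. The medians of the list were -0.0041 with SQ1 and 0.016 with pravastatin.

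Of 20 upstream cytokines and receptors tested, 2 rose and 11 fell with SQ1, with a median of -0.16, and 8 rose and 10 fell with pravastatin, with a median of -0.13. Il1b, which activates NF-kB through Il1r1, had -0.47 ± 0.07 with SQ1 and 0.29 ± 0.07 with pravastatin, and Tnf had -0.18 ± 0.03 with SQ1 (adjusted p = 0.000224) and 0.03 ± 0.03 with pravastatin (adjusted p = 0.437). Il1rap, the accessory chain of the IL-1 receptor, fell with SQ1 (-0.83 ± 0.19) and pravastatin (-2.05 ± 0.19), and so did Il1rn, the natural antagonist (-0.73 and -0.62). Ltb fell with SQ1 (-0.67), and Tlr9 with pravastatin (-1.14). Tlr5 (0.24) and Il18 (0.20) rose with SQ1, and Cd40 (0.58), Tlr2 (0.46) and Il18 (0.32) rose most with pravastatin.

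Of 26 other NF-kB responsive genes tested, 1 rose and 14 fell with SQ1, with a median of -0.18, and 9 rose and 8 fell with pravastatin, with a median of 0.02. The counts with pravastatin were near the shares of all genes. Steap4, a metalloreductase, fell most with both drugs (-1.11 ± 0.10 with SQ1 and -1.36 ± 0.10 with pravastatin). Mmp13 (-0.71) and Ch25h (-0.54), cholesterol 25-hydroxylase, fell next with SQ1, and Birc3 (0.20) was the 1 that rose. With pravastatin Cxcl16 rose by 1.28 ± 0.07, Ier3 by 0.79 ± 0.11 and Lif by 0.45 ± 0.06, and Serpina3n (-0.63) and Vcam1 (-0.39) fell.

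Of 15 other chemokines tested, 3 rose and 8 fell with SQ1, and 4 rose and 7 fell with pravastatin. Cxcl3, a Cxcr2 ligand like Cxcl1 and Cxcl2, fell with SQ1 (-0.62 ± 0.11, adjusted p = 0.000301) and rose with pravastatin (1.43 ± 0.11, adjusted p = 5.25e-09). Ccl3, a chemokine closely related to Ccl4, had -0.60 ± 0.07 with SQ1 and 0.61 ± 0.07 with pravastatin. Cxcl10, an interferon-induced attractant of T cells, rose with SQ1 (0.52 ± 0.18, adjusted p = 0.0348) and with pravastatin (3.3 ± 0.18, adjusted p = 1.14e-10). Cxcl13 fell with SQ1 (-0.82) and pravastatin (-1.26). Ccl9 (-1.91 ± 0.09) and Cxcl12 (-1.51 ± 0.09) fell most with pravastatin, and Ccl24 (0.28) and Cxcl9 (0.26) rose with SQ1. Of 17 receptors of the chemokines and of Il6, 9 were tested, and Cxcr2, Ccr2 and Ccr6 were not among them. With SQ1, Il6st (0.19) and Ccrl2 (0.12) rose and Sdc4 (-0.25) fell. With pravastatin the atypical receptors Ackr3 (0.65), Ackr2 (0.21) and Ackr1 (0.16) rose, and 4 fell, among them Sdc4 (-0.63), Sdc1 (-0.37) and Il6ra (-0.35).

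Of 27 genes of IL-6 signalling and its hepatocyte targets, 2 rose and 13 fell with SQ1, with a median of -0.22, and 4 rose and 18 fell with pravastatin, with a median of -0.39. The acute phase genes Fgg (-1.09 ± 0.11) and Fga (-0.86 ± 0.07), chains of fibrinogen, and Orm1 (-0.72 ± 0.10) fell most with SQ1. The receptor chain Il6st (0.19) and the kinase Tyk2 (0.12) rose. Socs3, a feedback inhibitor that Stat3 induces, fell with SQ1 (-0.50 ± 0.07, adjusted p = 7.96e-05) and was at 0.14 ± 0.07 with pravastatin (adjusted p = 0.112). Fgg (-2.67 ± 0.11), Fga (-2.08 ± 0.07) and Crp (-2.04 ± 0.09) fell most with pravastatin. Hamp (1.51 ± 0.19), Cebpd (0.51) and Cebpb (0.50) rose with pravastatin. Beside these stand the hepatocyte markers, of which 0 rose and 13 of 13 fell with pravastatin (median -1.45), and 0 rose and 4 fell with SQ1 (median -0.11). Fga is counted in both lists, and it was the hepatocyte marker that fell most with SQ1. Their summed linear level was 383490 to 808067 in pravastatin-treated channels, against 1344389 to 1703913 in controls, and 938630 to 1402072 in SQ1-treated channels, against 1000269 to 1669679 in controls. The part of this shift in the acute phase values was not tested.

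Of 15 immediate early and AP-1 genes tested, 1 rose and 4 fell with SQ1, and 8 rose and 5 fell with pravastatin. Fos fell with SQ1 (-0.40 ± 0.05) and pravastatin (-0.31 ± 0.05). Ier5 and Egr1 had -0.33 each with SQ1, and Maff rose (0.21). Fosl1 (1.5 ± 0.09), Maff (1.05 ± 0.06) and Myc (1.05 ± 0.04) rose most with pravastatin, and Egr1 (-0.73) and Jun (-0.47) fell. Of 8 factors that act on the decay of AU-rich cytokine mRNAs, 0 rose and 2 fell with SQ1, which were Zc3h12a (-0.37 ± 0.05), an endonuclease that cuts Il6 mRNA, and Zfp36l1 (-0.24). With pravastatin 2 rose (Hnrnpd at 0.10 and Elavl1 at 0.09) and 4 fell, led by Zfp36 (-0.39 ± 0.06), which encodes tristetraprolin, and its relatives Zfp36l2 (-0.27) and Zfp36l1 (-0.27).

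The counts of several of these lists depended on the normalization. With median centring, NF-kB subunits and inhibitors gave 2 higher and 0 lower with SQ1, kinases and adaptors 2 and 0, upstream cytokines and receptors 2 and 8, other NF-kB responsive genes 1 and 9, and other chemokines 2 and 5. The medians of the first pair of lists were then 0.03 and 0.11, on the other side of 0. IL-6 signalling and targets gave 0 higher and 9 lower with SQ1, the receptors 0 and 1, immediate early genes 1 and 1, and decay factors 0 and 1, with a median of 0.10 for the decay factors. With pravastatin the kinases and adaptors gave 7 higher and 2 lower, other NF-kB responsive genes 10 and 4, and the IL-6 list 5 and 14, and the receptors had a median of 0.06, against -0.08 with loess.

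**Figure D5:**
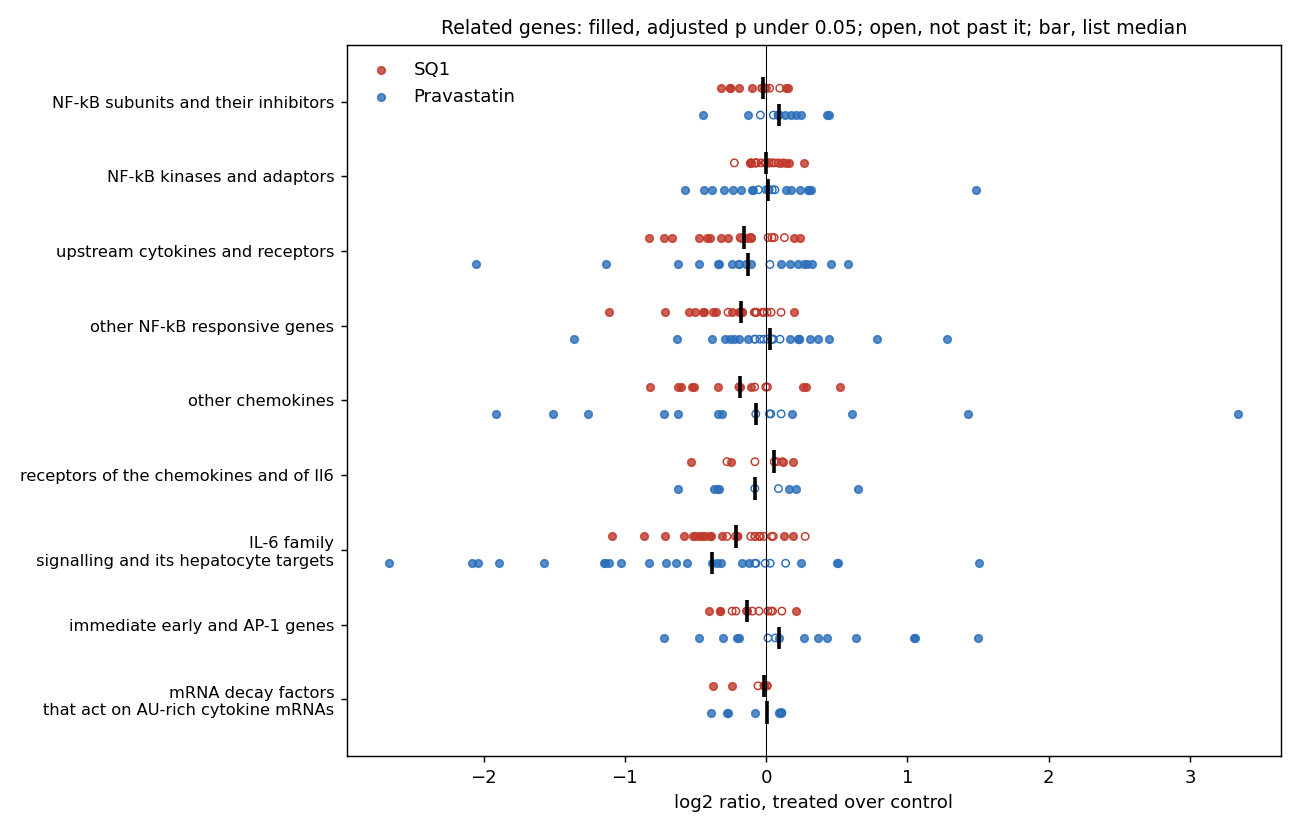
Log2 ratio of treated over control for each tested gene of 9 lists related to the members, SQ1 above pravastatin in each, with filled points for adjusted p under 0.05, open points for genes not past it, and a bar for the list's median. Points of pravastatin spread from -2.67 (Fgg) to 3.3 (Cxcl10), and those of SQ1 from -1.11 (Steap4) to 0.52 (Cxcl10).

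Markers of other cells moved with both drugs, and their counts too are to be read against all genes. Of all genes, 15.7% were called higher and 16.5% lower with SQ1, and 30.9% and 35.8% with pravastatin. Of 13 Kupffer cell and macrophage markers, 1 rose (Cd163, 0.46) and 6 fell with SQ1, led by Cd5l (-0.79), Adgre1 (-0.64) and Lyz2 (-0.42), with a median of -0.12. With pravastatin 0 rose and 11 fell, led by Vsig4 (-1.08) and C1qa (-0.86), with a median of -0.46. Their summed linear level was 13433 to 25681 with SQ1, against 15289 to 28808 in controls, and 10524 to 22605 with pravastatin, against 15082 to 29305 in controls. Their part in the chemokine and Il6 values was not tested. Of 11 other leukocyte markers on the array, 4 were tested, and S100a8 was well above background in no control channel. The leukocyte markers Ptprc (-0.25) and Cd3e (-0.25) fell with SQ1, and Cd3e (-0.46) and Itgam (-0.14) with pravastatin, with summed levels of 6328 to 9982 with SQ1, against 6282 to 10893 in controls, and 6380 to 9154 with pravastatin, against 6402 to 10937 in controls.

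Stellate cell and fibroblast markers gave 2 higher and 2 lower of 12 with SQ1, with a median of -0.05. Lrat (0.95 ± 0.10) and Pdgfra (0.33) rose, and Tagln (-0.31) and Reln (-0.11) fell. With pravastatin 0 rose and 5 fell, led by Tagln (-0.56). The summed level of the 12 markers was 76692 to 115920 with SQ1, against 82293 to 130546 in controls. With pravastatin it was 82207 to 117515, against 88984 to 135647 in controls. Endothelial markers gave 4 higher and 0 lower of 9 with SQ1, led by Lyve1 (0.47), and 3 higher and 4 lower with pravastatin, with sums of 13025 to 15786 with SQ1, against 11265 to 15145 in controls, and 9428 to 14084 with pravastatin, against 11268 to 15338 in controls. Cholangiocyte markers gave 0 higher and 3 lower of 8 with SQ1, led by Spp1 (-0.65), and 1 higher and 4 lower with pravastatin, led by Sox9 (-0.55), with sums of 112755 to 231577 with SQ1, against 155381 to 317541 in controls, and 206693 to 263314 with pravastatin, against 146150 to 357609 in controls. The part of these cells in the members' values was not tested either. With median centring, stellate cell markers gave 2 higher and 0 lower with SQ1 (median 0.04) and 1 and 1 with pravastatin, Kupffer cell markers 1 and 4 with SQ1 and 0 and 10 with pravastatin, endothelial markers 2 and 2 with pravastatin (median 0.03, against -0.03 with loess), and hepatocyte markers 0 and 1 with SQ1 and 0 and 11 with pravastatin. At an unadjusted limma p of 0.05 the counts of 0 given for hepatocyte, Kupffer cell, stellate cell, endothelial and cholangiocyte markers were also 0. Of the leukocyte markers, 0 were called higher with either drug, and at an unadjusted p of 0.05 these counts were 0 with SQ1 and 1 with pravastatin.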

How the data were processed

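The authors deposited scanner files that give, per spot and channel, median spot and background intensity, and the log10 ratio of red over green processed signal (Agilent Feature Extraction 11.0.1.1, per the file headers and the submitters' processing notes). The deposited series table holds log2 values that follow those ratios turned to treated over control, with column medians of -0.068 to 0.14 and centring not given in the sources used here. The median spot intensity was used in place of the mean. Intensities were corrected by normexp (offset 50) and loess with limma 3.58.1 in R 4.3.3. Aquantile scaling gave levels.

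Genes were named through RefSeq accessions, which named 27234 of 39429 probes. The brightest probe stood for a gene if it was well above background in at least 4 treated channels of a drug or 8 control channels and had ratios on at least 7 arrays per drug. limma (lmFit, eBayes) was fitted to all 16 arrays with a dye term (13 residual degrees of freedom), with two-sided tests adjusted by Benjamini-Hochberg and a threshold of 0.05. The fit was tested on simulated data, with noise drawn independently for each array. Deviations that arrays share by slide, scan day or replicate number were thus not covered by that test. Replicates are the submitters' cultures, and their number limits the precision. Same-numbered arrays of the drugs deviated together in 8 of 8 pairs (each correlation over 0.1), although an array correlated best with its own number in 3 of 8. They were taken as pairs only in the replicate block alternative. The main fit, and the standard errors and adjusted p-values from it, treated the 16 arrays as independent.

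All 10 members are named, and per list the 3 genes that rose most and the 3 that fell most among those called, plus genes a result turns on. Members and lists were chosen with earlier results of these data known. Tnf, Il1b, Socs3 and the cell type markers named fall outside that rule and were chosen after their values were seen. Alternatives covered background correction, normalization, probe choice, filters, blocks, array weights, threshold and single arrays. Some genes of these lists are not reported here.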

Additional observations from a re-analysis of the deposited data

How the results depend on the processing

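The members called numbered 8 with SQ1, 7 with pravastatin and 8 for their difference, and over all alternatives run they numbered 7 to 8, 6 to 7 and 7 to 9. Leaving out single arrays gave 8 to 8, 6 to 7 and 8 to 9 members, and 4051 to 5104, 9612 to 10045 and 7480 to 8273 genes. Other settings moved the gene counts more. With SQ1, 4860 genes were called, against 2071 with median centring in place of loess, 2543 and 2239 in the fits that block on slide and on day of scanning, and 3121 at an adjusted p of 0.01. For SQ1 minus pravastatin 7996 were called, against 3697 with median centring. Median centring also moved the share of calls that were higher to 71.1% with SQ1 and 61% with pravastatin, against 48.7% and 46.3%, and Agilent's own ratios moved it to 56.8% with pravastatin and to 44.7% for the difference, against 55.1%. With the replicate block, which pairs arrays of the same number, 4725, 9869 and 9620 genes were called for SQ1, pravastatin and their difference, against 4860, 10041 and 7996, and no member's call changed. Of the values of single members under each alternative, 752 kept their side of the threshold, 16 lost the call, 6 gained it and 0 called ones reversed. Nfkbia with SQ1, not called in either, was at -0.01 with scan day as a random block, against 0.03. The calls that changed were those of Ccl2 with SQ1, Cxcl5, Il6 and Nfkbia with pravastatin, and Ccl5 and Nfkbia for the difference, and the causes were not tested. The pravastatin value of Il6 was 0.30 from Agilent's own ratios, and the difference of Cxcl2 was -1.91 from them. Dim probes are limited by background, as for Ccl20.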
